A study of Mus musculus with 22 samples.

Results

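The heat shock chaperone genes of mouse liver were read on 22 arrays that compared intact, hypophysectomised and growth hormone (GH)-treated mice of both sexes. The genes were taken from a list of 10, chosen with earlier results of these data known: Hspa1a, Hspa1b, Hspa8, Hsph1, Hsp90aa1, Hsp90ab1, Dnaja1, Dnajb1, Hspb1 and Hspd1. Probes were assigned to them through the RefSeq accession or gene name in the scanner files, which gave 18 of the 41174 probes on the array and 9 of the 10 genes. All 9 genes passed the filter on dim signals and were among the 26192 gene names tested. No probe was assigned to Hspa1b, a near-identical copy that lies beside Hspa1a, so the Hspa1a signal may hold RNA of both copies. Hspd1 differs from the other members in that its protein works in mitochondria.

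Heat shock proteins are chaperones that bind unfolded proteins, keep them from clumping and help them fold. In the cytosol, J proteins such as Dnaja1 and Dnajb1 hand clients to the HSP70 proteins Hspa1a and Hspa8, Hsph1 drives nucleotide exchange on HSP70, and HSP90 completes the folding of kinases and of steroid hormone receptors. Heat, toxins and other stress free the transcription factor HSF1, which binds paired GAA units in the promoters of many of these genes.

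The mice were of the ICR strain and listed as 8 weeks old, and liver RNA was pooled within a group, with 2 to 5 mice in a pool. The groups were sham-operated, vehicle-injected males and females (called untreated or intact in the labels), hypophysectomised (Hypox) males and females, which lacked the pituitary and with it every pituitary hormone, and Hypox mice of both sexes given GH. GH was given either once, with the liver taken at 30 min or at 90 min, or as a pair of injections, with the liver taken 30 min after the later one (2GH). The labels used here give no GH dose. Each of 11 pairs of groups was hybridised on 2 arrays with opposite dyes, and pools recur on several arrays.

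Promoter sequence was at hand for 7 of the 10 genes (RefSeq, GRCm38.p6), and no such sequence was used for Hspa8, Hsp90aa1 and Hsp90ab1. The stretches below come from members with a paired GAA unit, marked in capitals and searched as GAANNTTC and TTCNNGAA. Each of these motifs equals its own reverse complement, so 1 strand covers both. Hspa1a, Hspb1 and Dnaja1 are given as the 250 bases before the gene start, and Hsph1 and Hspd1 as 30 bases around their motifs. Both short stretches lie inside the annotated gene, before an annotated start further in. The 250 bases before the outermost start of Hspd1 held no paired unit.

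Hspa1a: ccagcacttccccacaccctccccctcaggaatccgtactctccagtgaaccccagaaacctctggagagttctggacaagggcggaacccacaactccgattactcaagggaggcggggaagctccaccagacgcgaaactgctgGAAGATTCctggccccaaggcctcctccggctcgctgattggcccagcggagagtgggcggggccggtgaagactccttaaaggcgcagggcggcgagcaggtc
Hspb1: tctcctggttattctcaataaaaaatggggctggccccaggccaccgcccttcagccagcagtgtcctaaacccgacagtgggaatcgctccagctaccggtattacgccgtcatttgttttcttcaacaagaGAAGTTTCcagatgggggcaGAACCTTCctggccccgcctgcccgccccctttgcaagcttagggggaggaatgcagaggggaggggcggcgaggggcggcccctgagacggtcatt
Dnaja1: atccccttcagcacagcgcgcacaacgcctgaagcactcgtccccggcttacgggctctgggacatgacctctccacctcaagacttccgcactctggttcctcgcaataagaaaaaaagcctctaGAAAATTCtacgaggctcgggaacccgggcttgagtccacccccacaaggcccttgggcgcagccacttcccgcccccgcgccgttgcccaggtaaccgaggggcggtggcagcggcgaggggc
Hsph1: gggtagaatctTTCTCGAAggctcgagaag
Hspd1: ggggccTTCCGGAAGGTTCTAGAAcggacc

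The Hspa1a stretch lies at chr17:34972157-34972406 on the minus strand, the Hspb1 stretch at chr5:135887669-135887918 on the plus strand and the Dnaja1 stretch at chr4:40722218-40722467 on the plus strand. The Hsph1 stretch lies at chr5:149636351-149636380 and that of Hspd1 at chr1:55088053-55088082, both on the minus strand. A paired unit was found before at least 1 annotated start of 6 of these 7 genes, the exception being Dnajb1, against 14.5% of the 27025 genes with such sequence. Genes with several annotated starts, here Hsph1, Dnaja1, Dnajb1 and Hspd1, had more windows that could hold a match. Counted by window, 12.84% of 32851 windows held one. The longer 3-unit forms GAANNTTCNNGAA and TTCNNGAANNTTC, which contain the paired units, were found for Hspd1 and in 0.514% of all genes. The promoters of Hspa1a and Hspa1b had the same base at 247 of 250 positions. A match describes the letters in the window and was not tested as a binding site.

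In the red channel 57.1% to 77.7% of spots stood well above background, and in the green channel 69.3% to 75.6%. The 5 hepatocyte markers tested of 8 listed (Alb, Apoa1, Cyp2e1, Tat and Ttr) were well above background in all 44 channels and brighter than at least 98.6% of genes. The Y-linked genes Ddx3y, Eif2s3y, Kdm5d and Uty followed the labelled sexes, with log2 ratios between -0.34 and 0.55 on the 16 arrays that pair pools of the same sex. For the female 2GH arrays the series text names male Hypox as the partner and the labels name female Hypox, and these genes sided with the labels. The X-linked Xist was lower in males on all 6 arrays that pair the sexes, and on arrays of the same sex it lay between -0.55 and 0.47 except for -1.92 on array 2 of Hypox over sham females. Skeletal muscle RNA differed between pools: the summed log2 level of 12 muscle markers lay between 10.71 and 17.07 over all channels, at 14.18 to 15.93 in male sham and at 11.13 to 12.86 in female sham. In bulk RNA, fewer cells of a type and less RNA per cell cannot be told apart.

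Ratios below are log2 values of the first named group over the second, given for array 1 and array 2 and then as the fitted value ± SE (n = 2 arrays). All SEs were estimated jointly from the 22 arrays by limma, and a gene was called at a Benjamini-Hochberg adjusted p below 0.05 with both arrays on the same side of 0. Levels are log2 channel intensities of 1 probe after normalization and are compared only within a gene. Because channels of a group share pools, a lack of overlap between groups rests on fewer pools than channels. The share of all genes without such overlap was not computed.

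Sham males carried more chaperone RNA than sham females for 6 of the 9 genes by limma, with none called lower. The median of the 9 was 0.61, against -0.0055 over all genes, and 5.03% of all genes were called higher. The excess was greatest for the stress-inducible HSP70 gene Hspa1a and the small heat shock gene Hspb1. Hspa1a had ratios of 2.73 and 2.46 (2.59 ± 0.30, limma adjusted p = 0.000112), a 6.03-fold difference. Hspb1, whose protein holds unfolded clients for HSP70, had 2.46 and 1.97 (2.21 ± 0.23, adjusted p = 4.00e-05). The 4 male sham channels of Hspa1a lay at 13.48 to 14.12 and the 4 female sham channels at 10.75 to 11.57, with no overlap. For Hspb1 the ranges were 13.44 to 14.12 and 10.995 to 11.59, again with no overlap.

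Smaller male excesses were called for the HSP110 gene Hsph1 (0.94 and 0.93; 0.94 ± 0.19, adjusted p = 0.00744), both HSP90 genes and Dnajb1. The inducible HSP90 gene Hsp90aa1 had 1.15 and 0.69 (0.92 ± 0.18, adjusted p = 0.00492). The constitutive Hsp90ab1 had 0.62 and 0.28 (0.45 ± 0.08, adjusted p = 0.00367), and the J protein gene Dnajb1 0.79 and 0.43 (0.61 ± 0.14, adjusted p = 0.0176). In each of these 4 genes both arrays lay above 0. The constitutive HSP70 gene Hspa8 (0.15 and 0.06, adjusted p = 0.828), Dnaja1 (0.45 and 0.15, adjusted p = 0.241) and Hspd1 (0.40 and -0.13, adjusted p = 0.199) did not pass. Without replicate 1, or with median centring in place of loess, 2 genes passed, Hspa1a and Hspb1.

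Muscle markers moved with this comparison, with a median of 2.70 over 12 genes (3 called higher, none lower) and medians of 2.44 and 2.83 on the arrays. All 7 Kupffer cell and macrophage markers lay below 0 on both arrays (median -0.60, 2 called lower), and the stellate cell gene Reln was called lower (-0.44). Of 5 erythroid genes tested only Alas2 was called, and it was higher (2.17). The summed log2 level of these 5 genes was not higher in males, at 17.05 to 17.33 in male sham and 17.3 to 17.45 in female sham. The part of these cell types in the male excess was not tested. The highest muscle sums, 17.07 and 17.02, belonged to a male Hypox + GH (30 min) pool, with Hspa1a at 10.72 and 10.70 and Hspb1 at 10.98 and 10.99. The other male pool of that group, with sums of 10.71 and 10.93, had lower levels. Hspa1a was at 9.82 and 9.87 there and Hspb1 at 10.03 and 10.01. The female Hypox channels of the 2GH comparison, with muscle sums of 16.83 and 16.86, had Hspa1a at 11.15 and 11.12 and Hspb1 at 11.34 and 11.27. The other female Hypox channels, with sums of 11.02 to 11.17, had Hspa1a at 9.95 to 11.51 and Hspb1 at 10.50 to 11.12. All of these pools came from hypophysectomised mice, so their levels cannot be carried over to sham liver. The plot of both genes against the muscle sum shows all 44 channels.

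**Figure D1:**
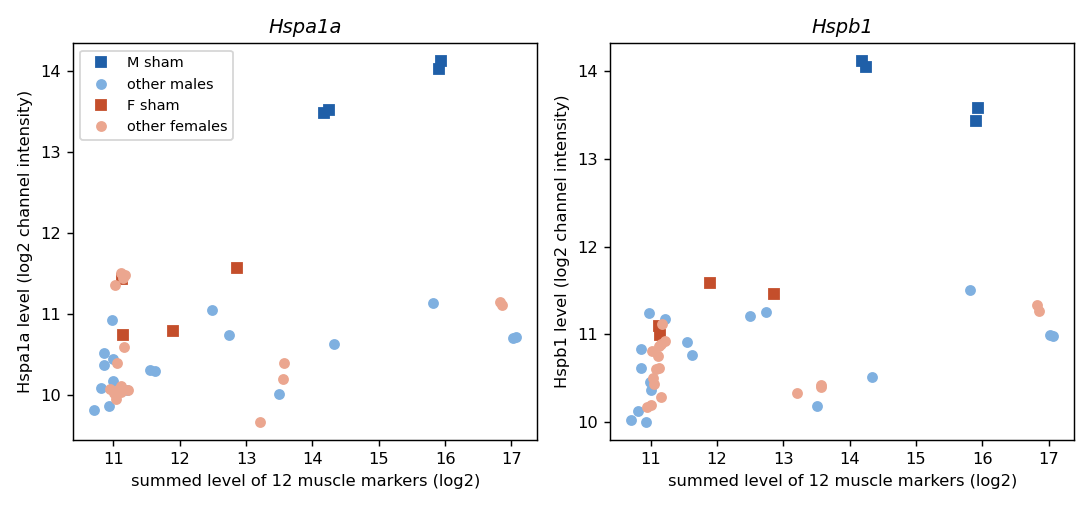
Level of Hspa1a (left) and Hspb1 (right) in each of the 44 channels (y axis, log2 channel intensity) against the summed level of 12 skeletal muscle markers (x axis, log2). The male sham channels (dark blue squares) sit at 13.44 or above for both genes. The channels with muscle sums of 16.83 to 17.07, all from hypophysectomised mice, sit at 11.34 or below.

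Chaperone RNA was lower in Hypox than in sham liver in both sexes. In males all 9 measured genes fell, with a median of -1.996 against 0.01 over all genes, where 18.6% of all genes were called lower. In females 7 of 9 fell, with a median of -0.75 against -0.0035 over all genes, where 16.5% were called lower. Both HSP90 genes, Hsph1, Hspa8, both J protein genes and Hspd1 fell in both sexes, while Hspa1a and Hspb1 fell in males and did not pass the test in females. In females 5 genes passed without array 2, the array with the low Xist ratio, and 4 with median centring.

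Hsph1 had the lowest ratio of the 9 in each sex. In males it was at -3.25 and -3.33 (-3.29 ± 0.19, limma adjusted p = 8.41e-08), a level 9.79-fold lower. In females it was at -1.50 and -2.01 (-1.76 ± 0.19, adjusted p = 3.21e-05). Its levels were 14.69 to 15.40 in the 4 male sham channels and 11.25 to 12.78 in the 10 male Hypox channels. In females they were 13.58 to 14.44 in the 4 sham channels and 12.01 to 13.26 in the 10 Hypox channels. Sham and Hypox did not overlap in either sex.

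Of the HSP70 genes, Hspa1a was at -3.17 and -3.38 in males (-3.28 ± 0.30, adjusted p = 4.31e-06) and at -0.67 and 0.08 in females (-0.29 ± 0.30, adjusted p = 0.515). The male arrays lay close together and the female arrays lay on both sides of 0. Female array 1 set a Hypox pool of 3 mice (level 10.08) against sham at 10.75. Array 2 set a Hypox pool of 2 mice (level 11.51) against sham at 11.43. The part of the pools in this split was not tested. Hspa8, which serves folding in unstressed cells, was at -1.19 and -0.80 in males (-0.99 ± 0.20, adjusted p = 0.00148) and at -0.72 and -0.77 in females (-0.75 ± 0.20, adjusted p = 0.0114). Its channel levels overlapped between sham males (15.51 to 16.29) and Hypox males (14.96 to 16.15), although both arrays of the direct comparison lay below 0 in each sex.

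Hsp90aa1 was at -2.87 and -2.86 in males (-2.86 ± 0.18, adjusted p = 1.37e-07) and at -1.12 and -1.52 in females (-1.32 ± 0.18, adjusted p = 0.000143). Hsp90ab1 changed less, with -1.15 and -0.81 in males (-0.98 ± 0.08, adjusted p = 1.73e-06) and -0.50 and -0.42 in females (-0.46 ± 0.08, adjusted p = 0.00103). The male channel levels of Hsp90aa1 were 16.35 to 17.20 in sham and 13.66 to 15.08 in Hypox, with no overlap. Those of Hsp90ab1, at 15.82 to 15.93 in sham and 14.72 to 15.39 in Hypox, did not overlap either.

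The J proteins stimulate the ATPase of HSP70. Dnaja1 was at -2.11 and -1.70 in males (-1.91 ± 0.14, adjusted p = 5.76e-07) and at -1.03 and -1.07 in females (-1.05 ± 0.14, adjusted p = 0.000135). Dnajb1 was at -2.06 and -1.93 in males (-1.996 ± 0.14, adjusted p = 4.96e-07) and at -1.16 and -0.84 in females (-1.001 ± 0.14, adjusted p = 0.000233). The 10 male Hypox channels of Dnajb1 lay within 11.74 to 12.06, below the 4 sham channels at 13.94 to 14.001.

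Hspb1 was at -3.20 and -2.32 in males (-2.76 ± 0.23, adjusted p = 1.84e-06) and at -0.38 and -0.23 in females (-0.31 ± 0.23, adjusted p = 0.348). Hspd1, the mitochondrial HSP60 that folds imported proteins in a closed chamber, was at -0.98 and -0.32 in males (-0.65 ± 0.06, adjusted p = 3.14e-06) and at -0.43 and -0.05 in females (-0.24 ± 0.06, adjusted p = 0.00688). Array 1 lay lower than array 2 in both sexes, and the dye term of Hspd1 was 0.23 (red over green, adjusted p = 3.47e-06). In males the muscle markers had a median of -2.79 (9 of 12 called lower), and in females of 0.04 (none called). Of the lymphocyte markers 6 of 7 rose in males and 4 of 7 in females, and of 5 erythroid genes 4 fell in each sex, while Alas2 rose in females (1.37) and was at -0.53 in males, not called. The part of these cell types in the chaperone ratios was not tested.

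**Figure D2:**
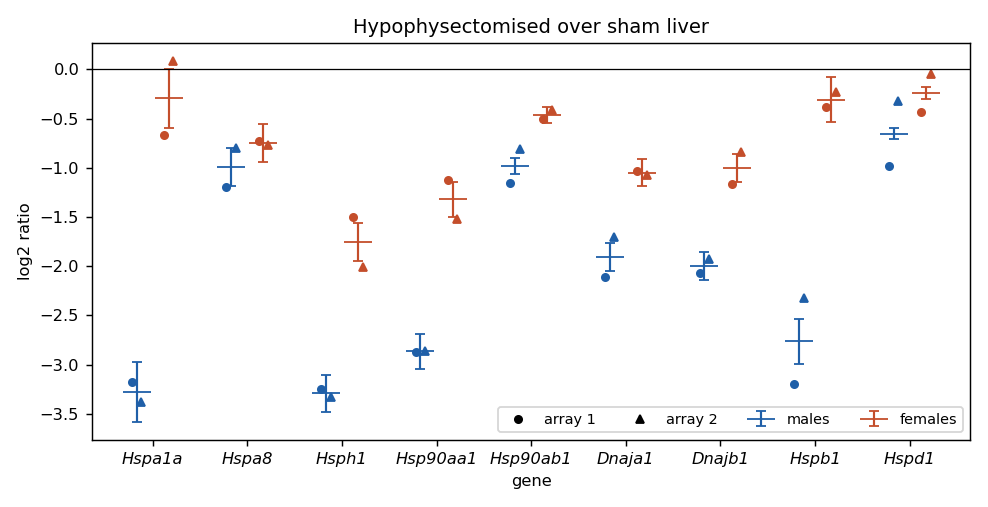
Log2 ratio of Hypox over sham liver (y axis) for the 9 genes (x axis) in males (blue) and females (orange). Circles are array 1, triangles array 2 and horizontal bars the fitted value with its SE. All male values lie below 0, from -0.65 for Hspd1 to -3.29 for Hsph1, and the female values of Hspa1a (-0.29) and Hspb1 (-0.31) were not called.

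The fall was larger in males for 8 of the 9 genes when the difference itself was tested, with 3.52% of all genes called lower in that test. The log2 difference was -2.98 ± 0.43 for Hspa1a (limma adjusted p = 0.00130), -2.45 ± 0.33 for Hspb1 (adjusted p = 0.000735), -1.54 ± 0.25 for Hsp90aa1 (adjusted p = 0.00297) and -1.54 ± 0.27 for Hsph1 (adjusted p = 0.00517). Dnajb1 (-0.99), Dnaja1 (-0.86), Hsp90ab1 (-0.52) and Hspd1 (-0.41) followed, with adjusted p between 0.0109 and 0.0223. Hspa8 differed by -0.25 with a 95% interval of -0.85 to 0.35, which did not pass. The female side of the Hspa1a difference rests on arrays whose Hypox pools differed in size and level, as given above. The male and female arrays lay on different slides scanned on different days, and the same difference was therefore also read from arrays that hold both sexes, as male over female Hypox minus male over female sham. That reading, chosen after seeing the data, called the same 8 genes lower, with Hspa1a at -3.003 ± 0.43, Hspb1 at -2.56 ± 0.33, Hsph1 at -1.71 ± 0.27 and Dnaja1 at -0.73 ± 0.20 (adjusted p = 0.0493). Its sham and Hypox arrays in turn lay on different scan days. Pool sizes recur between both readings, so they may hold the same RNA pools, and their agreement cannot stand for further mice. With 1 array of each sex left out, 1 gene (without replicate 1) or 3 genes (without replicate 2) passed, with median centring 1 passed, and no value changed sign.

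Among the genes that work with these chaperones, the HSP90 cochaperones mostly fell. The lists of such genes were also chosen with earlier results of these data known. Over all genes 18.6% were called lower and 18.8% higher in males, and 16.5% lower and 14.6% higher in females. Of 13 HSP90 cochaperones, 11 fell and 2 rose in males, and 8 fell and 2 rose in females, with medians of -0.81 and -0.40. Chordc1 (-1.74 in males and -0.88 in females) and Ahsa1, which activates the HSP90 ATPase (-1.31 and -0.71), were among those that fell, as were Stip1, which links HSP70 to HSP90 (-1.19 and -0.42), and the immunophilin Fkbp4 (-1.22 and -0.74). Fkbp5, a glucocorticoid-induced immunophilin, had the lowest ratio of this list in females (-2.32) and was at -1.15 in males. Of 13 other HSP70 proteins and exchange factors, 5 fell and 1 rose in males, and 3 fell and 2 rose in females, with medians of -0.09 and -0.05, and the female counts lie near those shares. Bag3, an exchange factor that HSF1 induces, fell (-1.94 and -0.88), Hspa4l of the HSP110 group fell (-1.71 and -0.67), and Hspa2 rose (1.84 and 1.11).

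The other chaperone systems differed among themselves. Of 8 subunits of the TRiC chaperonin, which folds actin and tubulin, 6 fell in males and 3 in females, with Cct3 at -0.79 and -0.41. Of 9 further mitochondrial chaperones 4 fell and 2 rose in males and 3 fell and 1 rose in females. Hspe1, the partner of Hspd1, was at -0.87 and -0.56, while Grpel2 rose in males (0.93) and Hspa9 in females (0.73). The counts of this list that rose lie near the shares over all genes. Of 13 endoplasmic reticulum (ER) chaperones 12 fell in males and 3 in females, with medians of -1.38 and -0.24. Sdf2l1 was at -2.63 in males and at -0.86 in females, where it was not called, and the test of the difference called 9 of them lower in males. Of 7 other J proteins 2 fell and 1 rose in males and 3 fell and 1 rose in females, and Dnaja4 was at -1.69 and -0.46. The male counts of the J proteins lie near the shares over all genes. None of 6 other small heat shock genes was called in either sex. Hsf1 itself fell slightly, at -0.33 ± 0.06 in males (adjusted p = 0.000929) and -0.17 ± 0.06 in females (adjusted p = 0.0474). Of the other 2 genes tested in this list, Hsbp1, which binds HSF1, rose (0.25 in males and 0.20 in females), and Hsf4 rose in males (0.22) and was at 0.14 in females, not called.

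Set directly against each other, Hypox males and Hypox females differed in none of the 9 genes by limma, where 1.63% of all genes were called in either direction and 4 of the 9 had an unadjusted p below 0.05. All 9 fitted values lay below 0, with a median of -0.36 against 0.0015 over all genes. Hsph1 was at -0.85 and -0.69 (-0.77 ± 0.19, adjusted p = 0.0657), Dnaja1 at -0.46 and -0.40 (-0.43 ± 0.14, adjusted p = 0.145) and Hsp90ab1 at 0.09 and -0.20 (-0.06 ± 0.08, adjusted p = 0.826). Hsph1 and Dnaja1 were lower in males on both arrays, and Hsp90ab1 was not. The loop model, which draws on every path between the groups, called 4 of the 9 lower in males. It called 2614 of the 26192 genes in either direction, against 427 in the main model. The fit with the replicate number as a block called 1 of the 9, and its share over all genes is not given here. Hspa1a, at 0.13 and -0.96, went opposite ways on the 2 arrays, but its probe A_52_P52803 lay at -0.71 and -0.77 and was called lower in males (-0.74 ± 0.10, adjusted p = 0.00472).

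**Figure D3:**
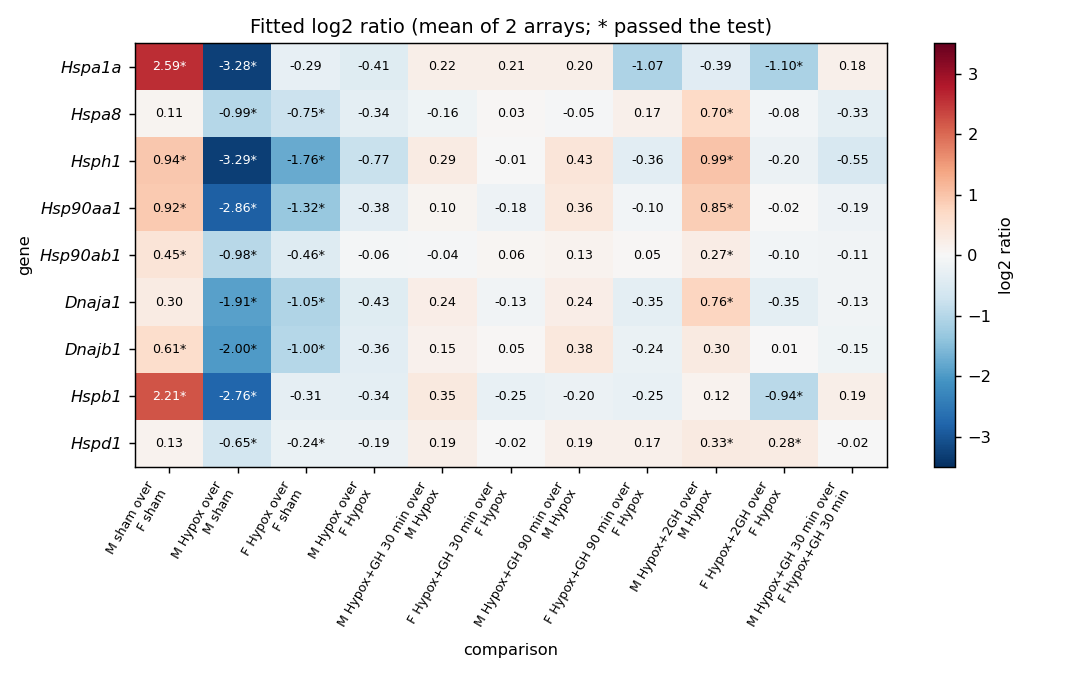
Fitted log2 ratio of each gene (rows) in each of the 11 comparisons (columns), from blue (lower in the first named group) to red (higher), with an asterisk where the limma test called the gene. Calls cluster in the comparisons with sham mice and in males after 2 GH injections, and the columns for a single GH injection hold none.

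A single GH injection changed none of the 9 genes by the limma test at either time in either sex. At 30 min the median was 0.19 in Hypox males (2.5% of all genes called in either direction, 1 of 9 genes with unadjusted p below 0.05) and -0.01 in Hypox females (0.0191% called, 0 of 9 below 0.05). In males the arrays disagreed: array 1 lay above 0 for 9 of 9 genes, with a median of 0.49, and array 2 for 1 of 9, with a median of -0.10. The GH pool of array 1 was the one with a muscle sum of 17.07, against 13.5 in its Hypox partner, while on array 2 the sums were 10.71 and 10.81. The part of muscle RNA in this split was not tested. Hspb1 was at 0.80 and -0.10 on these arrays (0.35 ± 0.23, adjusted p = 0.466) and Hsph1 at 0.68 and -0.11 (0.29 ± 0.19, adjusted p = 0.477). The same male GH pools set against female GH pools at 30 min gave no call (0.504% of all genes called, 1 of 9 genes with unadjusted p below 0.05), with Hsph1 at -0.31 and -0.78 (-0.55 ± 0.19, adjusted p = 0.262).

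At 90 min the median was 0.20 in males (4.98% of all genes called, 3 of 9 genes with unadjusted p below 0.05) and -0.24 in females (3.17% called, 3 of 9 below 0.05). Dnajb1 was at 0.36 and 0.40 in males (0.38 ± 0.14, adjusted p = 0.160) and Hsph1 at 0.25 and 0.62 (0.43 ± 0.19, adjusted p = 0.242). In females Hspa1a was at -0.85 and -1.29 (-1.07 ± 0.30, adjusted p = 0.0844). The female Hypox partners there were pools of 2 mice, with Hspa1a at 11.44 and 11.36, while Hypox pools of 3 mice lay at 9.95 to 10.11. The male arrays of Dnajb1 and Hsph1 lay above 0 and the female arrays of Hspa1a below it, but none of these values passed. The sexes were not called different for any of the 9 genes at 30 min or 90 min (0.00764% of all genes called at each time), with 1 and 4 genes at an unadjusted p below 0.05. The immediate-early gene Ier2 rose in both sexes at 90 min (0.74 in males and 0.66 in females), and Fos rose in females (1.58) and was at 0.84 in males, not called.

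After 2 GH injections 6 of the 9 genes rose in Hypox males and none fell, where 10.6% of all genes were called higher. The median of the 9 was 0.33, against -0.0084 over all genes. Hsph1 was at 1.40 and 0.59 (0.99 ± 0.19, limma adjusted p = 0.00270), Hsp90aa1 at 1.09 and 0.62 (0.85 ± 0.18, adjusted p = 0.00429) and Dnaja1 at 0.84 and 0.68 (0.76 ± 0.14, adjusted p = 0.00195). All 3 rose on both arrays, and the rises were of 0.76 to 0.99, beside falls of -1.91 to -3.29 for the same genes in Hypox against sham males. Hspa8 was at 0.45 and 0.94 (0.70 ± 0.20, adjusted p = 0.0240), Hsp90ab1 at 0.22 and 0.32 (0.27 ± 0.08, adjusted p = 0.0346) and Hspd1 at 0.13 and 0.53 (0.33 ± 0.06, adjusted p = 0.00155). Dnajb1 was at 0.19 and 0.42 (0.30 ± 0.14, adjusted p = 0.176), Hspb1 at -0.06 and 0.30 (0.12 ± 0.23, adjusted p = 0.807) and Hspa1a at -0.86 and 0.08 (-0.39 ± 0.30, adjusted p = 0.454). The other probe of Dnajb1, at 0.31 and 0.42, was called higher (0.36 ± 0.09, limma adjusted p = 0.0122). Hspa1a and Hspb1, the members with the greatest male excess in sham mice, were thus not among the genes that rose.

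The muscle markers were uneven in this male comparison as well, with medians of -0.04 on array 1 and 2.83 on array 2. Of the 6 genes that rose, Hsph1, Hsp90aa1 and Dnaja1 had their larger ratios on array 1 and Hspa8, Hsp90ab1 and Hspd1 on array 2, and the median of the 9 genes was 0.22 on array 1 and 0.53 on array 2. The part of muscle RNA in these ratios was not tested. Both male Hypox pools were labelled as 5 mice, more together than the series text gives for the group, so they share mice. Without replicate 1, or with median centring in place of loess, none of the 9 genes passed, and without replicate 2 the count was 4.

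In Hypox females 2 GH injections moved 3 of the 9 genes, where 8.43% of all genes were called in either direction. Hspa1a fell (-1.47 and -0.72; -1.10 ± 0.30, adjusted p = 0.0423), Hspb1 fell (-1.005 and -0.87; -0.94 ± 0.23, adjusted p = 0.0275) and Hspd1 rose (0.02 and 0.54; 0.28 ± 0.06, adjusted p = 0.0126). Hsph1 was at 0.02 and -0.43 (-0.20 ± 0.19, adjusted p = 0.619) and Hsp90aa1 at 0.14 and -0.18 (-0.02 ± 0.18, adjusted p = 0.972). Neither lay on 1 side of 0. Dnaja1 lay below 0 on both arrays, at -0.33 and -0.36 (-0.35 ± 0.14, adjusted p = 0.155).

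These female calls moved with other measures. The muscle markers had a median of -3.02, with 11 of 12 called lower, and of the 6 other small heat shock genes 4 fell, against 4.03% of all genes called lower, with Cryab, which is abundant in muscle, at -1.86 (0.48 in males, not called). The female Hypox pools on these arrays had muscle sums of 16.83 and 16.86, against 11.02 to 11.17 in the other 8 female Hypox channels. Hspa1a also split by pool: the 4 female Hypox channels from pools of 3 mice lay at 9.95 to 10.11 and the 6 from pools of 2 mice at 11.12 to 11.51, and both the 90 min and the 2GH comparison used pools of 2 mice. The part of either in the result was not tested. Without replicate 1, without replicate 2 or with median centring none of the 9 genes passed, and the probe A_52_P52803 of Hspa1a gave -0.13 where the main probe gave -1.10.

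**Figure D4:**
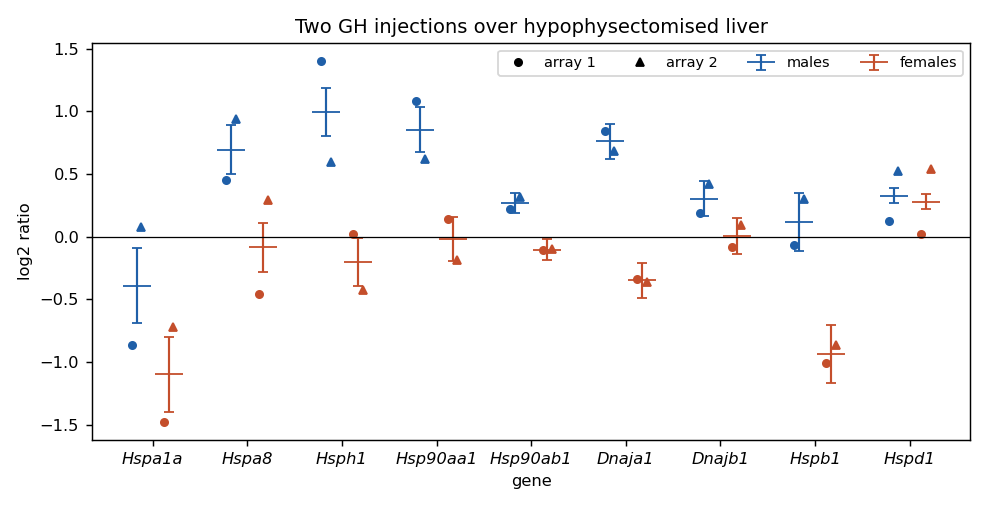
Log2 ratio after 2 GH injections over Hypox liver (y axis) for the 9 genes (x axis) in males (blue) and females (orange). Circles are array 1, triangles array 2 and horizontal bars the fitted value with its SE. Hsph1, Hsp90aa1 and Dnaja1 lie between 0.76 and 0.99 in males and between -0.35 and -0.02 in females.

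The response to 2 injections was higher in males for Hsph1 (difference 1.197 ± 0.27, limma adjusted p = 0.0449) and Dnaja1 (1.11 ± 0.20, adjusted p = 0.0206), where 1.11% of all genes were called higher. The difference lay above 0 for 9 of 9 genes, with a median of 0.78, and 6 of the 9 had an unadjusted p below 0.05. Hsp90aa1 differed by 0.87 with a 95% interval of 0.33 to 1.41 (adjusted p = 0.0804) and did not pass after adjustment. Of 13 alternatives, 8 ended the call of Hsph1 and 4 that of Dnaja1, and those that ended both were median centring, the arrays of the comparison alone and leaving out either replicate. The sexes were again on different slides and scan days.

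After 2 injections most HSP90 cochaperones, TRiC subunits and ER chaperones rose in males. Over all genes 10.6% were called higher and 8.7% lower in males, and 4.4% higher and 4.03% lower in females. Of the 13 HSP90 cochaperones 8 rose and none fell in males, with Fkbp5 at 1.45, Chordc1 at 0.86, Ppid at 0.78 and Ptges3 at 0.51. In females 2 of them rose, Fkbp5 (0.90) and Ppid (0.44), while Chordc1 (0.07) and Ptges3 (0.14) were not called. All 8 TRiC subunits rose in males (Cct3 at 0.92) and 1 rose in females (Cct3 at 0.43). Of 13 ER chaperones 11 rose in males, Sdf2l1 at 1.52 and Hspa5 at 1.48, and 1 rose in females, where Sdf2l1 (0.55) and Hspa5 (0.46) were not called.

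The remaining lists were more mixed. Of 13 other HSP70 proteins and exchange factors 5 rose and none fell in males, with Hspa13 at 1.47, Hspa4 at 0.95 and Bag3 at 0.93. In females 2 rose and 1 fell, with Hspa13 at 0.73, while Hspa4 (0.31) and Bag3 (0.09) were not called. Of 9 further mitochondrial chaperones 2 rose and 1 fell in males and 1 rose in females. Hspe1 rose in both (0.40 and 0.31), and Grpel2, a nucleotide exchange factor, fell in males (-0.77) and was at 0.04 in females. Of 7 other J proteins 2 rose in males and none was called in females. Hsf1 rose in males (0.27 ± 0.06, adjusted p = 0.00836) and was at 0.12 in females, not called.

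The levels by group summarise the same genes over the loop of pools. For Hsph1 the group means ran from 15.02 in male sham (SD 0.35, n = 4 channels) through 14.02 in female sham (SD 0.42, n = 4) and 13.71 in male 2GH (SD 0.48, n = 2) to 12.98 in female 2GH (SD 0.21, n = 2). All other groups lay between 11.69 (male Hypox + GH 30 min, SD 0.39, n = 4) and 12.53 (female Hypox, SD 0.42, n = 10), and neighbours among them did not differ beyond their spread. The male Hypox channels on the 2GH arrays, at 12.65 and 12.78, were the highest of the 10 male Hypox channels, and the female Hypox channels there, at 13.10 and 13.26, the highest of their 10. For Dnajb1 male sham (13.98) and female sham (13.40) stood above the other 8 groups, whose means lay between 11.84 and 12.34. For Hspa1a and Hspb1 male sham stood alone, at 13.78 and 13.795, and the other 9 group means lay between 10.03 and 11.13 for Hspa1a and between 10.31 and 11.34 for Hspb1. Channels of a group share pools and are no independent samples.

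**Figure D5:**
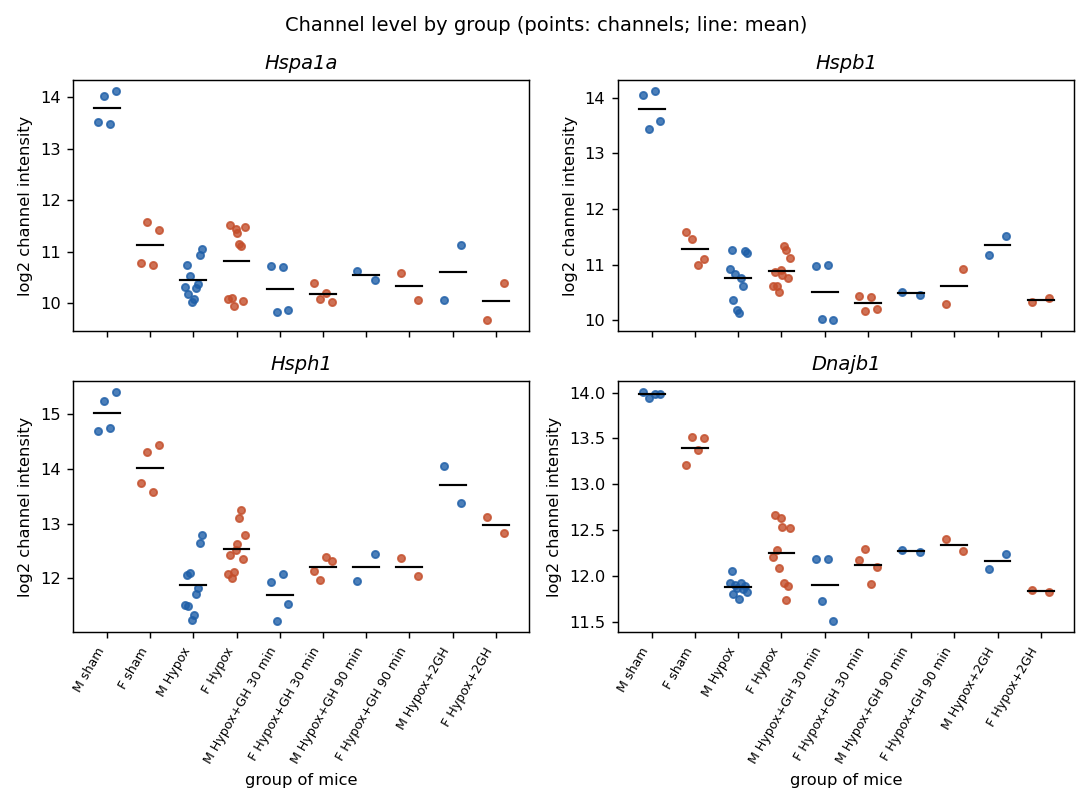
Channel levels (y axis, log2 channel intensity) of Hspa1a, Hspb1, Hsph1 and Dnajb1 in the 10 groups of mice (x axis; males blue, females orange), with a point per channel and a line at the mean. Hspa1a and Hspb1 are high in male sham only, Hsph1 and Dnajb1 in both sham groups, and Hsph1 stands at 13.71 in males after 2 GH injections.

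Across the 22 arrays the genes formed closer and looser pairs. Hsph1 and Hsp90aa1 had Pearson r = 0.981, Hsph1 and Dnaja1 0.963 and Hspa1a and Hspb1 0.931, while Hspa1a with Hspd1 had 0.439 and Hspa1a with Hspa8 0.455. The median over all pairs was 0.782. These values describe arrays that share pools and comparisons, and the same pools recur among them. The genes most like the median of the 9 over the 22 arrays, among 13741 named genes, were Ahsa1 (r = 0.961), Gatad2a, a subunit of the NuRD repressor complex (0.954), Cacybp (0.94), Pnpla7 (0.936), Higd1a (0.934), Serpina11 (0.933), Psmd8, a proteasome subunit (0.932), Usp10, a deubiquitinase (0.93), Ces4a (0.929) and Pfkfb3 (0.929).

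The loop of comparisons gave a second reading of the sex difference in sham mice from other arrays. Pool sizes recur by replicate around this loop. The route may therefore hold the same RNA pools and cannot stand for further mice. The ratio of sham males over sham females, summed by way of both Hypox groups, was 2.64 and 2.50 for Hspa1a in replicates 1 and 2, against the measured 2.73 and 2.46, and for Hspb1 2.42 and 1.80 against 2.46 and 1.97. Over the 9 genes the measured value minus the value by this route had a median of -0.12 in replicate 1 (range -0.23 to 0.09) and 0.0003 in replicate 2 (range -0.36 to 0.63). Hspa8 gave the widest gap, at 0.63 in replicate 2.

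Other probes of the same gene agreed in direction wherever the main probe was called. Of 29 such values 27 were called as well and 2 were not. For Hspa1a the other 3 probes ranged from -3.28 to -0.58 in Hypox over sham males, the smallest from the probe A_52_P304902, which was well above background in 18 of 22 green and 20 of 22 red channels. In Hypox over sham females the probe A_52_P52803 rose (0.48, adjusted p = 0.00278) while the main probe was at -0.29 and not called. For Dnaja1 the other probes gave -1.74 and -1.52 in Hypox males against -1.91, and for Dnajb1 the other probe gave -1.57 against -1.996.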

How the data were processed

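Gene expression was measured on 22 Agilent 2-colour whole mouse genome arrays. Per the file headers, the deposited scanner files hold the mean signal intensity and background median intensity of each spot, a log10 ratio of red over green processed signals, and software flags (other values, used as filters). The deposited table of log2 ratios restates the scanner ratios in log2 form, turned by the dyes, so only the scanner files were used, and their log ratio served as an alternative. Of its 22 columns, 6 equalled the array filed under the same sample and 16 the array of the other replicate of the same comparison (within 0.011). The filing of the scanner files was kept, so array numbers and pool sizes rest on it, while the direction of a ratio was the same in both.

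Signals were background corrected in limma 3.58.1 (R 4.3.3; normexp, offset 50) and normalized by loess within arrays, with control spots at weight 0 and outlier spots removed. Ratios were oriented by the dyes in the labels. Levels by channel were taken after quantile normalization of the average intensities (Aquantile). Probes were named through RefSeq (22072 of 41174 matched a symbol), and the brightest probe stood for a gene. A gene was tested if, for some comparison, each of its arrays showed the probe well above background in red or green.

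All arrays were fitted in 1 limma model (lmFit and eBayes) with 11 comparisons and a dye term for each probe (10 residual degrees of freedom, prior 2.5), with Benjamini-Hochberg adjustment over 26192 genes. On simulated data for Hypox over sham males with 26192 genes, the fit recovered 89% of genes changed by 1 on the log2 scale. It recovered 100% of those changed by 2, with 15 false calls among unchanged genes. The simulated noise was independent between arrays, without recurring pools or dye effects, so these values may not hold for the real arrays. The number of arrays limits the precision. Pools recur across comparisons and were treated as independent, and p-values measure only the spread between these pools and arrays. Same-numbered arrays of the male and female comparisons had residual correlations of -0.131 (Hypox), -0.123 (GH 30 min), -0.2 (GH 90 min) and 0.054 (2GH) across genes, so the replicate number was not used as a pair. Alternatives were median centring, no background correction, the scanner ratio, no filter, slide as a random block, dye by scan day, the arrays of a comparison alone, a loop model, a replicate block, other probes and leaving out a replicate.

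The members and lists were chosen with earlier results of these data known. The text names every member, up to 4 called members per list and comparison with the largest ratios, and the 10 genes most correlated with the members' median.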

Additional observations from a re-analysis of the deposited data

Results flagged for a closer look

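The response to Hypox differed between the sexes in the test of the difference itself for 8 genes, each lower in males on the log2 scale: Hspa1a by -2.98, Hspb1 by -2.45, Hsph1 by -1.54, Hsp90aa1 by -1.54, Dnajb1 by -0.99, Dnaja1 by -0.86, Hsp90ab1 by -0.52 and Hspd1 by -0.41. The response to 2 GH injections was higher in males for Hsph1, by 1.2, and for Dnaja1, by 1.11. In both cases the sexes lay on different slides and scan days. For Hypox the arrays that hold both sexes, a reading chosen after seeing the data, called the same 8 genes. That reading may hold the same RNA pools, and its sham and Hypox arrays lay on different scan days.

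For Hsp90ab1, 1 of the 4 channels of female Hypox + GH (30 min) lay apart from the others, at 14.9659, on array 1 of the comparison of males with females after GH. Its group otherwise reached 15.10. Of 54 such checks this was the single one past the limit, and chance alone passes about 1 in 20.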

How the results depend on the processing

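Of 41 calls of single genes none changed sign under any of 11 alternatives. The loop model, the replicate block and slide as a random block (correlation 0.098) kept 41, dye by scan day 40, no background correction and testing every gene 39 each, the scanner ratio 37, the arrays of a comparison alone 22 and median centring 13. Without replicate 1, 19 remained, and without replicate 2, 25. The 9 genes lower in Hypox males numbered 6 to 9 under every alternative. Counts of member genes moved as follows, and the cause was not tested. Male over female sham gave 2 under median centring, 3 from its own arrays and 2 to 4 without a replicate. Female Hypox gave 4 under median centring. Male 2GH gave 0 under median centring, 1 from its own arrays and 0 to 4 without a replicate. Female 2GH gave 0 under median centring, 1 with the scanner ratio and 0 without either replicate. The sex difference of Hypox gave 1 under median centring, 2 from its own arrays and 1 to 3 without a replicate. That of 2GH gave 0 under median centring, from its own arrays and without either replicate, and 1 with the scanner ratio, every gene, dye by scan day or, chosen after seeing the data, without the arrays of sham mice. The gene called in those 4 settings was Dnaja1. Male over female Hypox gave 4 with the loop model, male GH (30 min) gave 1 with it and 1 without background correction, and female GH (90 min) gave 1 with dye by scan day. With the replicate number as a block, male over female Hypox gave 1, the sex difference of Hypox 8 and that of 2GH 3. The block changed no other call. Crossing the replicate numbers of the female comparisons, also chosen after seeing the data, gave 8, 0, 0 and 2 member genes for the sex differences of Hypox, GH 30 min, GH 90 min and 2GH.

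Counts over all genes, with their range over alternatives, were 2297 (424 to 4117) for male over female sham, 9783 (2991 to 12285) for male Hypox, 8142 (1897 to 9697) for female Hypox, 427 (8 to 2614) for male over female Hypox, 656 (0 to 1362) and 5 (0 to 163) for male and female GH 30 min, 1304 (120 to 1690) for male GH 90 min, 614 higher and 215 lower (5 to 1611 in all) for female GH 90 min, 5049 (454 to 5569) and 2208 (81 to 2811) for 2GH, and 132 (0 to 913) for male over female GH 30 min. The sex differences gave 1766 (147 to 5806), 2 (0 to 458), 2 (0 to 26) and 517 (0 to 1410). The larger of higher and lower changed side for male Hypox with every gene (9555) and the loop model (12285) and without a replicate (5046 to 6498), for female Hypox with the scanner ratio (8069), and for male over female Hypox without background correction (736) and with the loop model (2614). It also did for male GH 30 min with the scanner ratio (344), female GH 30 min from its own arrays (109) and the loop model (163), female 2GH with dye by scan day (2678) and its own arrays (1671), and male over female GH 30 min without background correction (168) and with the loop model (913). For the sex difference of GH 90 min it did from its own arrays (5), without a replicate (1 to 9) and without sham arrays (1), and for that of 2GH with the scanner ratio (178) and its own arrays (1). Splits of higher to lower moved from 4917 and 4866 to 1837 and 1154 (male Hypox), from 467 and 189 to 11 and 2 (male GH 30 min), from 891 and 413 to 95 and 25 (male GH 90 min), from 2770 and 2279 to 321 and 133 (male 2GH) and from 1153 and 1055 to 56 and 25 (female 2GH) under median centring. Under the scanner ratio they moved from 467 and 189 to 150 and 194 (male GH 30 min), from 614 and 215 to 531 and 427 (female GH 90 min) and from 290 and 227 to 70 and 108 (2GH sex difference). With 2 arrays a comparison, small differences could not be resolved.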
